A study of Mus musculus with 6 samples.

Results

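Leukocyte entry adhesion molecules are the surface proteins by which circulating white cells slow, stop and leave a vessel. Of 55291 gene symbols in the deposited table, 9 were taken by symbol as this set: Vcam1, Icam1, Icam2, Sele, Selp, Selplg, Madcam1, Glycam1 and Cd34. They were measured in 6 bulk RNA-seq libraries of subcutaneous tumours of CT2A, a mouse glioblastoma cell line: 3 from Siglece KO mice (replicates KO1 to KO3) and 3 from WT mice (replicates WT1 to WT3). One label gives brain as the source and another the subcutaneous tumour, which was followed. Siglece encodes Siglec-E, an inhibitory receptor for sialic acids on mouse myeloid cells. The labels name no treatment, time point or age for either group, no sort or gate, and not the allele of the knockout. Nor do they tie each library to an animal of its own, so the p-values cover the spread among these samples alone, and that spread may be technical. Between 5000 and 20000 cells were taken per sample for Smart-seq2, which copies whole transcripts into cDNA and keeps no record of the strand. The members were described in counts, in CPM (counts per 1000000 of the TMM-scaled library), and relative to Pecam1, an endothelial junction molecule that leukocytes and platelets also carry.

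Leukocyte entry runs in steps. Selectins on inflamed endothelium (Sele, Selp) catch sugar-coated mucins on leukocytes, chiefly the product of Selplg, and the cells roll. Integrins on the leukocyte then bind the immunoglobulin-like molecules Icam1, Icam2 and Vcam1, and the cells stop and cross. Madcam1, Glycam1 and Cd34 can carry selectin-binding sugars on high endothelial venules, the entry vessels of lymphoid tissue. Sele, Icam1 and Vcam1 are induced in endothelium by inflammatory cytokines, Selp is also stored in endothelial cells and platelets, and Icam2 is present on resting endothelium.

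Library totals ran from 24369359 to 40574093 counts, so 3 counts, the limit that a count of 0 allows, stood for 0.0820 to 0.150 CPM. Such limits cover counting error only. Siglece had 0, 8 and 0 counts in KO1, KO2 and KO3, against 74, 99 and 64 counts in WT1, WT2 and WT3 (log2 fold change -4.66, adjusted p = 0.0409, edgeR). KO2 stood apart from its group. On the first principal component, which held 72.7% of the variance, it lay at 17.7, KO1 and KO3 at -116 and -178.5, and the WT libraries between 84.7 and 97.1. Cell type markers differed between the groups. Of all 18621 tested genes, 11.2% were called higher in KO (rose) and 0.226% lower (fell), at an adjusted p of 0.05 (edgeR). The summed level of 18 endothelial genes was 689.8 to 1926 CPM in KO and 188 to 238 CPM in WT, with no marker at 0 in every library, and 16 of the 18 rose. Leukocyte genes summed to 1546 to 5743 CPM in KO and 539.9 to 826 CPM in WT, and 9 of 10 rose. Fibroblast genes summed to 12271 to 38606 CPM in KO and 2258 to 3618 CPM in WT, and 9 of 10 rose. Genes of neural and glial cells, the lineage of a glioma, summed to 45.8 to 431 CPM in KO and 588 to 666 CPM in WT, and 3 of 8 fell. Of the other lists, 5 of 8 pericyte and smooth muscle, 4 of 6 skeletal muscle, 3 of 6 lymphatic endothelial and 1 of 6 adipocyte genes rose, and 0 of the tested platelet, keratinocyte or milk genes did. The summed lymphatic level was 113 to 174 CPM in KO and 195 to 251 CPM in WT, a sum carried by Reln; without it, chosen after its values were seen, the sum was 73.5 to 145 CPM in KO and 19.9 to 26.6 CPM in WT. Mitochondrial genes took 1.92 to 4.402% of the counts in KO and 0.717 to 1.13% in WT. In bulk tumours, more cells of a type and more RNA per cell cannot be told apart.

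Among the adhesion genes, Vcam1, Icam2, Selplg and Cd34 rose in KO tumours, by 5.80-fold to 6.55-fold. Sele, Selp and Icam1 had higher levels in each KO library than in any WT library but did not pass the test, and Madcam1 and Glycam1 were nearly absent. Of the 9 genes, 7 passed the filter on low counts and were tested. Sele and Selp passed it only through their KO libraries, which tilts the counts and the median over the 7 toward higher in KO. Of the 7, 4 were called higher and 0 lower by edgeR's quasi-likelihood test at an adjusted p of 0.05, where 11.2% of all 18621 tested genes were called higher and 0.226% lower. The median log2 fold change was 2.66 over the 7 and -0.05 over all tested genes. KO and WT libraries did not overlap for each of the 7, with KO higher; the same held for 24.6% of all tested genes, and 44.1% had groups that did not overlap in either direction. The count of 4 depended on the libraries. It was 0 without KO1, WT1, WT2 or WT3, fits in which edgeR called no gene at all. At an unadjusted p under 0.05, 7 members passed in each of these fits, all higher in KO, where 16, 20.2, 17.0 and 17.0% of all genes passed and were higher. In the same fits DESeq2 called 5, 5, 6 and 5 members higher, with 10.3, 14.3, 11.8 and 11.8% of all genes. Limma-voom without these libraries called 0 members and 0 of all tested genes. The edgeR count was 7 without KO2 and 4 without KO3. These fits called 4449 of 19592 and 943 of 19432 tested genes higher. With DESeq2 on all libraries the count was 7, with 17.5% of all genes called higher. The endothelial, leukocyte, fibroblast and mitochondrial values given above were also higher in KO, and their part in the changes was not tested.

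**Figure D1:**
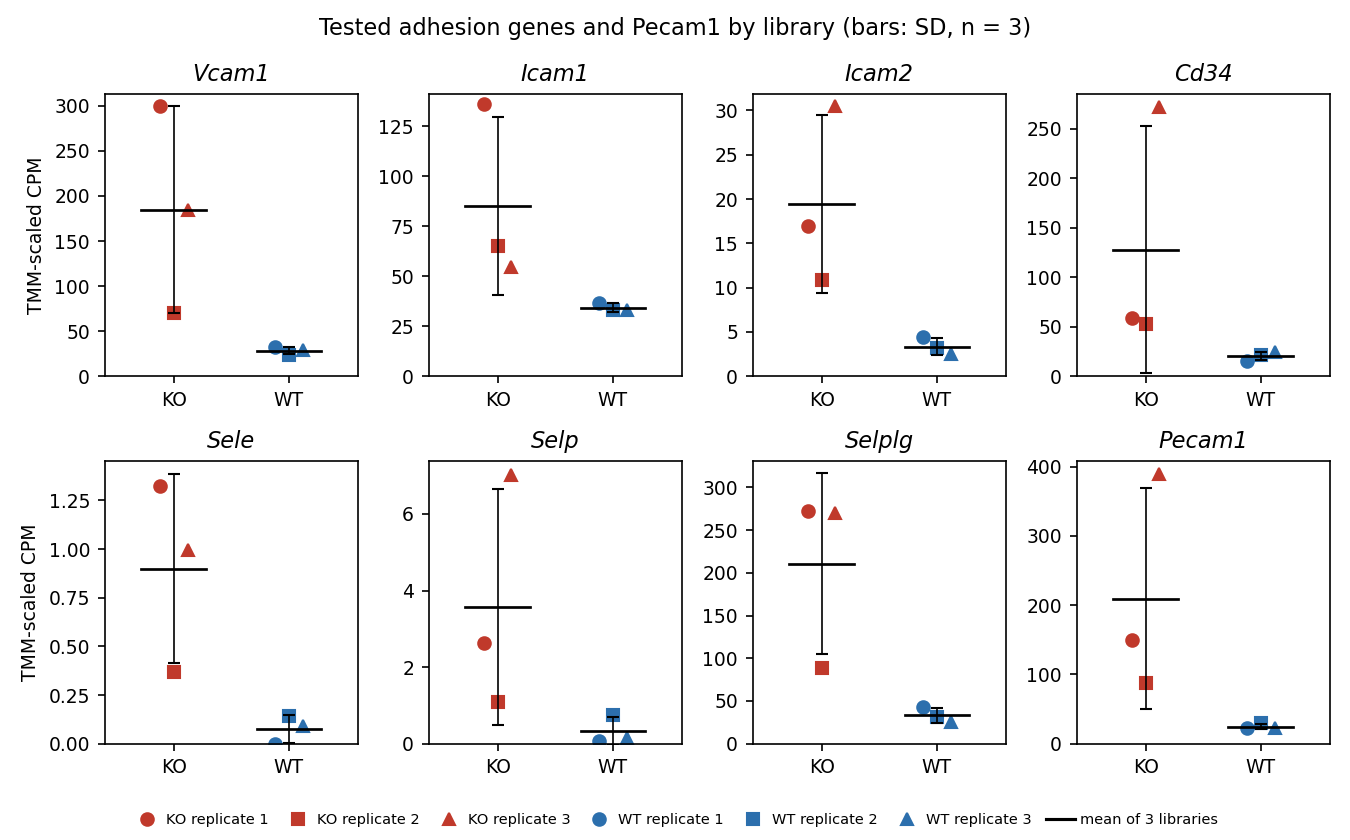
TMM-scaled CPM (vertical axes, linear from 0, a scale for each gene) of the 7 tested adhesion genes and Pecam1 in KO (red, left) and WT (blue, right), with 1 symbol per library, the mean as a horizontal line and the SD as a bar (n = 3; the bar of Selp in WT is cut at 0). Every KO symbol lies above every WT symbol in each panel; KO1 is highest for Vcam1, Icam1 and Sele, KO1 and KO3 are nearly level for Selplg, and KO3 is highest for Icam2, Cd34, Selp and Pecam1.

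The promoters of Icam1, Sele and Selp are shown as those of cytokine-induced or stimulus-released endothelial molecules for which a promoter window was at hand. Vcam1, also cytokine-induced, had no such window. RefSeq (GRCm38.p6) windows of 300 bases, from 250 before to 50 after the RefSeq start of the gene, were matched for 6 of the 9 members, all but Vcam1, Icam2 and Selplg. Motifs were searched on both strands and are in capitals: GGNNTTTCC (NF-kappaB type), TGANTCA (AP-1), TGACNTCA (CRE/ATF type) and TATAAA (core box). The windows lie at chr9:21015690-21015989, chr1:164047984-164048283 and chr1:164115014-164115313, each on the plus strand and read 5′ to 3′. The RefSeq start was the start in the deposited table for Sele, Selp, Madcam1 and Glycam1, differed by 2 bases for Cd34, and lay 45 bases before it for Icam1.
Icam1: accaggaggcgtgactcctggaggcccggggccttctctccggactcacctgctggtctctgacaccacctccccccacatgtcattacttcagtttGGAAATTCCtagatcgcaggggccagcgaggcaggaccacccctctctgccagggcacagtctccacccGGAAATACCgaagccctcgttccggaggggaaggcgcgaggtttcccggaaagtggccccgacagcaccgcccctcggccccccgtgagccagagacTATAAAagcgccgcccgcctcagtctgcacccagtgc
Sele: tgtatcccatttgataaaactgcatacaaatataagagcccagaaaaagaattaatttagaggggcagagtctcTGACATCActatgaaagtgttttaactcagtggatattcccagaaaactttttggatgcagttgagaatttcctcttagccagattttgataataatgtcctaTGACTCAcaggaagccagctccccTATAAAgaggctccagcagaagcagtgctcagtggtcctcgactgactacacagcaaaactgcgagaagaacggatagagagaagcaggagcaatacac
Selp: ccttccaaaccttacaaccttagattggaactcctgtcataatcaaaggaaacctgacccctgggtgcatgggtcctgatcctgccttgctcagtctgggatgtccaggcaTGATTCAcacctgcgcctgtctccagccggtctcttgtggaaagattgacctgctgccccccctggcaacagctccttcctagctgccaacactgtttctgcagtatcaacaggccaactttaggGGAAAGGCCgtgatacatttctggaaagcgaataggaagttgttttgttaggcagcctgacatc
The Icam1 window held GGAAATTCC at 153 bases and GGAAATACC at 84 bases before the RefSeq start, both reverse-strand matches to the NF-kappaB type motif, and a TATA box at base 14 counted from that start. Counted to the Icam1 start of the deposited table, these lie 198, 129 and 32 bases before it. In Sele, a CRE/ATF type match lay 176 bases, an AP-1 match 73 bases and a TATA box 49 bases before the start. Selp held an AP-1 match 139 bases and an NF-kappaB type match, GGAAAGGCC, 14 bases before the start. Madcam1 held NF-kappaB type matches at 83 and 70 bases before its start, and the windows of Glycam1 and Cd34 held none of the motifs. No match overlapped another. Of 32851 RefSeq mouse windows, 5.82% held the NF-kappaB type motif, 7.81% AP-1, 8.83% CRE/ATF type and 13.6% the TATA box. A match describes these letters only. Other spellings of these sites were not searched, so a window without a match may still hold such a site.

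Vcam1 binds the integrin of Itga4 and Itgb1 on lymphocytes and monocytes. The gene spans bases 116109949 to 116129688 of chromosome 3 (minus strand, mm10), and its merged exons span 8870 bases. Its level was 299.8, 69.6 and 185 CPM in KO1, KO2 and KO3, against 32.1, 24.04 and 28.6 CPM in WT1, WT2 and WT3. The WT libraries lay close together and the KO libraries were spread widely, with KO2 lowest. Vcam1 averaged 185 ± 115.1 CPM in KO tumours, against 28.2 ± 4.01 CPM in WT tumours (SD, n = 3 each), a log2 fold change of 2.71 (SE 0.51, adjusted p = 0.0249, edgeR). Without KO1 the log2 fold change was 2.10 and the adjusted p 0.0934.

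Icam1, the ligand of the integrins of Itgal and Itgam with Itgb2, spans bases 21015985 to 21028817 of chromosome 9 (plus strand). It was at 136, 65.0 and 54.3 CPM in KO1, KO2 and KO3 and at 36.8, 32.8 and 32.9 CPM in WT1, WT2 and WT3. The WT values were nearly equal, and KO3, the library highest in Pecam1, was the KO library lowest in Icam1. The means were 85.1 ± 44.5 CPM in KO tumours, against 34.2 ± 2.25 CPM in WT tumours (SD, n = 3 each), a log2 fold change of 1.32 (SE 0.38) that did not pass (adjusted p = 0.0610, edgeR), and of 0.75 without KO1. It passed with DESeq2 (0.0229), with no low-count filter (0.0263), with quality weights in limma-voom (0.000350), when KO2 was left out (0.0206), and when KO2 and WT1 were (0.0499). Some of its 4360 exon bases overlap exons of the minus-strand gene Gm47079, which had 677, 434 and 286 counts in KO1, KO2 and KO3 and 545, 180 and 191 in WT1, WT2 and WT3; reads there cannot be told apart without strand.

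Icam2, also a ligand of leukocyte integrins with Itgb2, spans bases 106377656 to 106388075 of chromosome 11 (minus strand). Levels were 17.0, 10.8 and 30.5 CPM in KO1, KO2 and KO3 and 4.37, 3.16 and 2.50 CPM in WT1, WT2 and WT3. KO3 was highest, as for Pecam1. Icam2 averaged 19.4 ± 10.1 CPM in KO tumours, against 3.34 ± 0.949 CPM in WT tumours (SD, n = 3 each), a log2 fold change of 2.54 (SE 0.48, adjusted p = 0.0246, edgeR).

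The selectins of endothelium were scarce. Sele and Selp lie on the plus strand of chromosome 1 at 164048234 to 164057677 and at 164115264 to 164150026. Sele had 39, 13 and 20 counts in KO1, KO2 and KO3, against 0, 5 and 3 counts in WT1, WT2 and WT3. No WT library reached the lowest KO count. Sele averaged 0.898 ± 0.486 CPM in KO tumours, against 0.0772 ± 0.0720 CPM in WT tumours (SD, n = 3 each), a log2 fold change of 3.48 with a wide SE of 1.07 (adjusted p = 0.0747, edgeR). Selp had 77, 38 and 141 counts in KO1, KO2 and KO3, and 3, 26 and 5 counts in WT1, WT2 and WT3. WT2 held most of the WT counts and lay closest to KO2. Selp was at 3.58 ± 3.09 CPM in KO tumours, against 0.324 ± 0.363 CPM in WT tumours (SD, n = 3 each), a log2 fold change of 3.44 (SE 1.04, adjusted p = 0.0713, edgeR). Both passed with DESeq2 (adjusted p = 0.0192 for Sele, 0.00435 for Selp), with quality weights in limma-voom (0.00178 and 0.00770), without KO2 (0.0278 and 0.0183), and without KO2 and WT1 (0.0181 and 0.0412), and Selp with no low-count filter (0.0152). By the library left out, the log2 fold change of Sele ran from 2.88 without WT1 to 4.21 without WT2, and that of Selp from 2.48 without KO3 to 4.87 without WT2. Genes of platelets, which also carry Selp, summed to 55.8 to 362 CPM in KO and 23.0 to 52.8 CPM in WT; 0 of 5 tested passed. An order of KO above WT libraries without overlap, held by 24.6% of all tested genes, was seen for 4 of the 8 genes. Among these, Treml1 had 45, 15 and 78 counts in KO1, KO2 and KO3 and 7, 4 and 0 in WT1, WT2 and WT3, and the chemokine gene Ppbp 12, 8 and 17 in KO and 0, 2 and 0 in WT for the same replicates. The chemokine gene Pf4 was 9.12-fold higher (adjusted p = 0.0572, edgeR), and Itga2b 1.70-fold. Pf4 made up most of the platelet sum in KO3, at 326 of 362 CPM. The receptor gene Gp1ba had 62, 74 and 7 counts in KO1, KO2 and KO3 and 59, 80 and 74 in WT1, WT2 and WT3. For Gp1ba and Gp1bb the groups overlapped, with log2 fold changes of -0.40 and 0.36 (adjusted p = 0.698 and 0.701, edgeR). The receptor genes Gp6 and Gp9 had 0 counts in each KO library and at most 3 in a WT library. The part of platelets in the Selp counts was not tested. In KO3, 27 counts were assigned to Gm16548, a minus-strand gene that shares 438 exon bases with Selp, and 0 to 5 in each other library.

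Selplg encodes PSGL-1, the main selectin ligand of leukocytes, and spans bases 113818536 to 113832644 of chromosome 5 (minus strand). It was at 273, 88.1 and 270.4 CPM in KO1, KO2 and KO3 and at 43.2, 31.1 and 25.8 CPM in WT1, WT2 and WT3. KO1 and KO3 were nearly equal, and KO2 was lower than both but above each WT library. The means were 210.4 ± 106 CPM in KO tumours, against 33.4 ± 8.93 CPM in WT tumours (SD, n = 3 each), a log2 fold change of 2.66 (SE 0.48, adjusted p = 0.0246, edgeR). Set against Ptprc, the pan-leukocyte phosphatase CD45, Selplg had 64.0, 53.4 and 109 counts per 100 Ptprc counts in KO1, KO2 and KO3, and 86.2, 36.0 and 36.3 in WT1, WT2 and WT3. The groups overlapped, and the mean log2 ratio was higher by 0.58 in KO, a difference that did not pass an exact two-sided permutation test (p = 0.3; 3 against 3 libraries cannot go below 0.1). Against the summed leukocyte genes the log2 difference was 0.18 (p = 0.3 in the same exact permutation test).

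Cd34, a sialomucin of capillary endothelium, blood progenitors and some skin fibroblasts, spans bases 194938819 to 194961279 of chromosome 1 (plus strand). Its level was 59.2, 52.4 and 272 CPM in KO1, KO2 and KO3, against 15.6, 21.8 and 23.98 CPM in WT1, WT2 and WT3. KO3 alone was 13.3 times the WT mean, while KO1 and KO2 were 2.89 and 2.56 times. Cd34 averaged 128 ± 125 CPM in KO tumours, against 20.5 ± 4.33 CPM in WT tumours (SD, n = 3 each), a log2 fold change of 2.64 (SE 0.66, adjusted p = 0.0419, edgeR). The log2 fold change was 1.43 without KO3 (adjusted p = 0.0455) and 1.78 with limma-voom and quality weights, and Cd34 missed the threshold with limma-voom (0.0647) and without composition scaling (0.0511). Summed fibroblast genes were at 13.2, 4.18 and 9.37 times their WT mean in KO1, KO2 and KO3, highest in KO1 and so unlike Cd34. Endothelial genes were at 4.83, 3.30 and 9.22 times, highest in KO3. In KO3 summed adipocyte genes were at 51.6 times and skeletal muscle genes at 16.7 times their WT means. The parts of these lists in the Cd34 level were not tested. Cd34 shares 148 exon bases with the minus-strand gene Gm16897, whose counts ran the other way, at 48, 222 and 12 in KO1, KO2 and KO3 and 692, 508 and 520 in WT1, WT2 and WT3.

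Of the ligands of high endothelial venules, Madcam1 and Glycam1 were barely detected. Madcam1, which binds the integrin of Itga4 and Itgb7 in gut vessels, spans bases 79664559 to 79668537 of chromosome 10 (plus strand) and had 5, 5 and 8 counts in KO1, KO2 and KO3 and 15, 0 and 1 counts in WT1, WT2 and WT3. Glycam1, a secreted mucin of high endothelial venules and of milk, spans bases 103562759 to 103565081 of chromosome 15 (minus strand) and had 0, 3 and 10 counts in KO1, KO2 and KO3 and 0 counts in each WT library. The Madcam1 groups overlapped. The 13 counts of Glycam1 over the KO libraries came to a pooled level 5.40 times that of a limit of 3 counts over the WT libraries. The counting error of the 13 was not included, 10 of them lay in 1 library, and KO1 had 0, like each WT library. Both genes were under the low-count filter and were not tested.

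Per kilobase of merged exon, Selplg had the highest mean level of the set in KO, at 49.3 ± 24.8 CPM per kb. Vcam1 (20.8 ± 12.98), Icam1 (19.5 ± 10.2), Cd34 (17.5 ± 17.1) and Icam2 (10.2 ± 5.29 CPM per kb) followed, and each of these ranges over the KO libraries overlapped the next. In WT, Icam1 (7.84 ± 0.516) and Selplg (7.82 ± 2.09) were level at the top, and Vcam1 (3.18 ± 0.453), Cd34 (2.81 ± 0.594) and Icam2 (1.76 ± 0.499 CPM per kb) lay below without overlap with those 2. Icam1 was thus among the top pair in WT, while Selplg was above Icam1 in each of the 3 KO libraries. Selp, Sele, Madcam1 and Glycam1 averaged 0.811, 0.308, 0.165 and 0.0913 CPM per kb in KO and 0.0734, 0.0265, 0.102 and 0 CPM per kb in WT. A gap without overlap separated them from Icam2 in both groups, and the ranges of neighbours in their order overlapped. Within each KO library, though, Selp was above Sele, Sele above Madcam1 and Madcam1 above Glycam1.

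**Figure D2:**
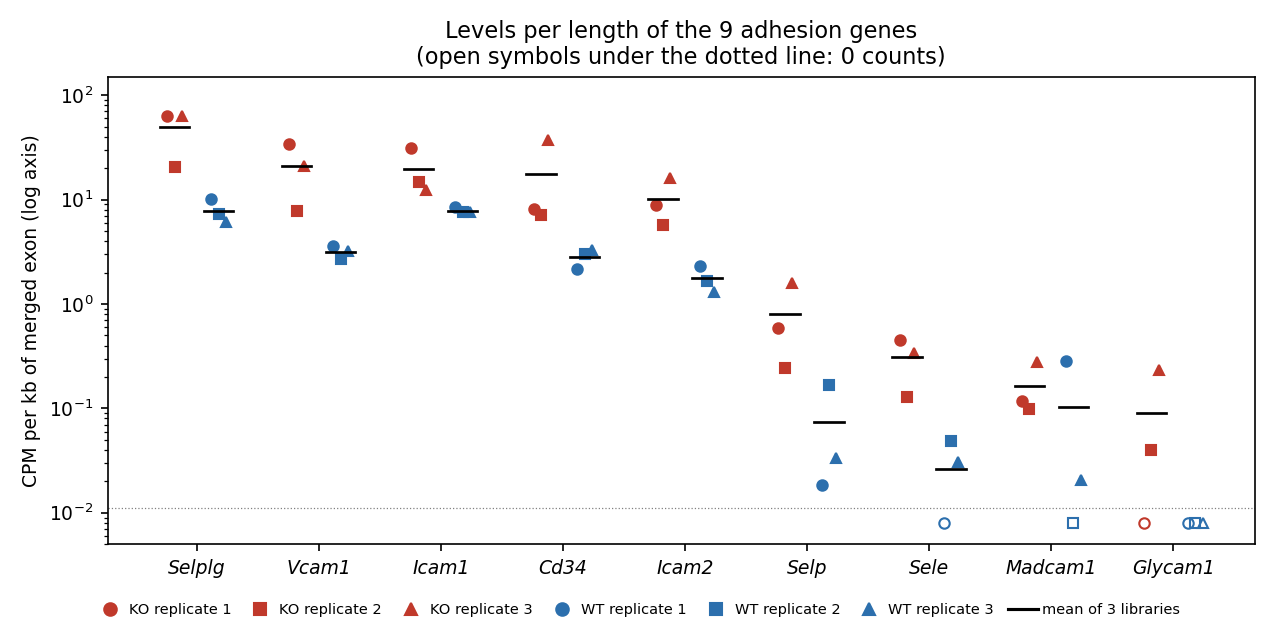
CPM per kilobase of merged exon (log axis) of the 9 genes in each library, KO in red to the left of WT in blue, with the group mean as a line; open symbols under the dotted line stand for 0 counts. Selplg, Vcam1, Icam1, Cd34 and Icam2 lie above 1 CPM per kb in every library, and Selp, Sele, Madcam1 and Glycam1 lie under all 5 within each group, with Selp of KO3 at 1.59 CPM per kb and each WT library at 0 for Glycam1.

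Relative to Pecam1, the tested members other than Icam1 had smaller log2 differences between the groups than in CPM, and Icam1, higher in each KO library in CPM, had a lower ratio in each. Pecam1 was at 149.6, 88.2 and 389.9 CPM in KO1, KO2 and KO3 and at 22.1, 29.7 and 22.5 CPM in WT1, WT2 and WT3, a log2 fold change of 3.08 (SE 0.56, adjusted p = 0.0246, edgeR). This exceeded the fold change of each tested member except Sele and Selp. Vcam1 had 200.5, 79.0 and 47.4 counts per 100 Pecam1 counts in KO1, KO2 and KO3, and 145, 81.1 and 127 in WT1, WT2 and WT3. The KO libraries spanned the whole WT range and beyond at both ends. The mean log2 ratio of Vcam1 differed by -0.33 (KO minus WT; exact two-sided permutation p = 0.6, smallest possible 0.1), and the sign turned without KO3 (0.14).

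Icam1 had 91.0, 73.7 and 13.9 counts per 100 Pecam1 counts in KO1, KO2 and KO3, and 167, 111 and 146 in WT1, WT2 and WT3. Each KO library lay under each WT library, and KO3 lay far under the rest. The mean log2 ratio differed by -1.62 (exact two-sided permutation p = 0.1, the smallest the design allows). It was -0.77 without KO3 and -2.12 without KO1. Cd34 had 39.6, 59.4 and 69.8 counts per 100 Pecam1 counts in KO1, KO2 and KO3 and 70.8, 73.4 and 107 in WT1, WT2 and WT3. These groups did not overlap either, though KO3 and WT1 nearly met, and the log2 difference was -0.59 (p = 0.1, same exact permutation test) and -0.35 without KO1. Relative to Pecam1, 81.8% of all tested genes had KO libraries under the WT libraries without overlap, and 0.489% had them above, so the order of Icam1 and Cd34 was also that of most genes.

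For Icam2, the counts per 100 Pecam1 counts were 11.4, 12.3 and 7.83 in KO1, KO2 and KO3 and 19.9, 10.7 and 11.2 in WT1, WT2 and WT3, and the groups overlapped (log2 difference -0.37, exact permutation p = 0.6; -0.086 without WT1). Selplg, mainly a leukocyte gene, had 182, 99.9 and 69.3 in KO and 196, 105 and 115 in WT for the same replicates, again with overlap (-0.30, exact permutation p = 0.5). The endothelial selectins were the pair with a higher mean ratio in KO. Sele had 0.898, 0.436 and 0.262 counts per 100 Pecam1 counts in KO1, KO2 and KO3 and 0.0618, 0.528 and 0.463 in WT1, WT2 and WT3, after adding 0.5 to each count. WT1, with 0 counts, set the low WT mean: the log2 difference was 0.92 (exact permutation p = 0.7) and -0.079 without that library. Adding 0.1 in place of 0.5 made it 1.76. Selp had 1.76, 1.24 and 1.81 in KO and 0.433, 2.54 and 0.728 in WT for the same replicates. The 3 KO values lay within the WT range, at a log2 difference of 0.77 (exact permutation p = 0.4), which was 0.22 without WT1 and 1.495 without WT2. The p-values of these 7 ratios are not adjusted for their number.

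**Figure D3:**
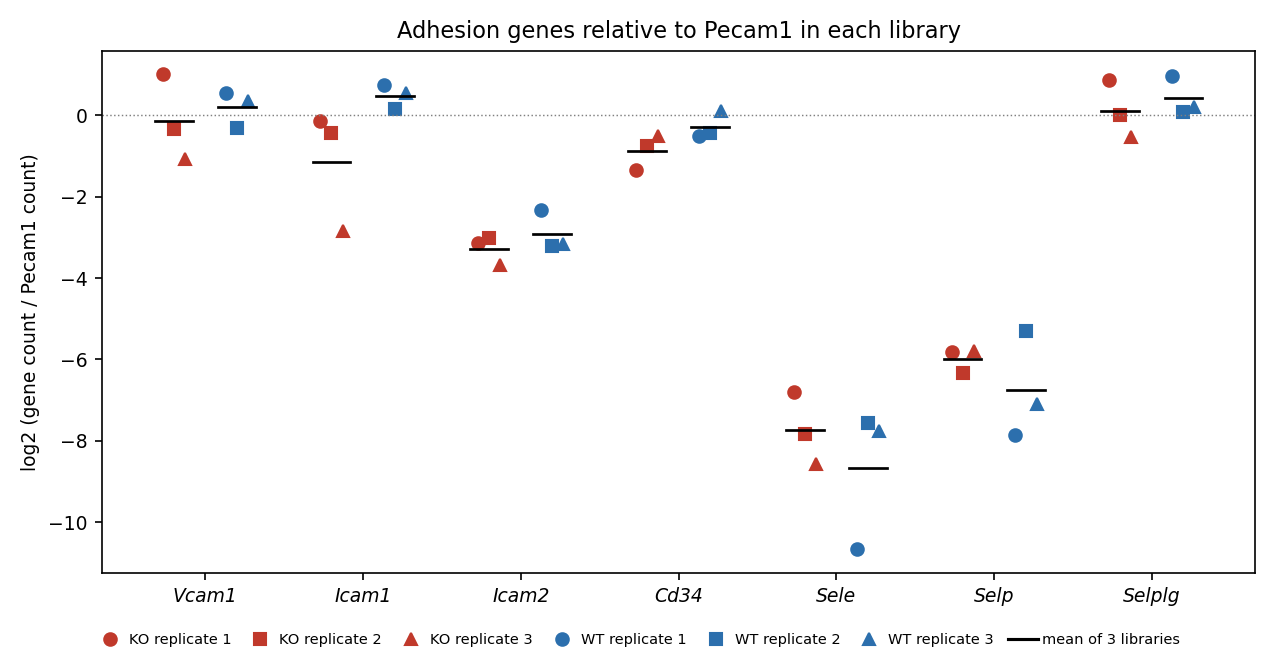
The log2 ratio of each gene's count to the Pecam1 count of the same library (0.5 added to both), with KO in red to the left of WT in blue, 1 symbol per library and the group mean as a line. KO and WT overlap for Vcam1, Icam2, Sele, Selp and Selplg, while the 3 KO symbols of Icam1 and of Cd34 lie under the 3 WT symbols.

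An edgeR fit over all tested genes with the Pecam1 counts as library sizes gave log2 fold changes relative to Pecam1 of -0.11 for Vcam1 (SE 0.75), -1.25 for Icam1 (SE 0.76), -0.40 for Icam2 (SE 0.77), -0.57 for Cd34 (SE 0.70) and -0.24 for Selplg (SE 0.74). Those of Sele and Selp were 0.80 (SE 1.19) and 0.42 (SE 1.00). None of the 7 was called in either direction, with adjusted p from 0.139 for Icam1 to 0.896 for Vcam1, and 0 of the 7 had an unadjusted p under 0.05. On this scale 74.2% of all tested genes were called lower in KO and 0.231% higher, with a median log2 fold change of -2.62. With standard errors of 0.70 to 1.19 on the log2 scale, moderate differences in either direction were not detectable. With the sum of the 18 endothelial genes, Pecam1 among them, as denominator, the log2 differences were 0.077 for Vcam1, 0.036 for Icam2, 0.11 for Selplg, -0.18 for Cd34, -1.21 for Icam1, 1.33 for Sele and 1.18 for Selp, and the Icam1 groups still did not overlap while the Cd34 groups did. Cdh5, the endothelial cadherin, as denominator gave -0.49 for Vcam1, -1.78 for Icam1, -0.53 for Icam2, -0.46 for Selplg, -0.75 for Cd34, 0.76 for Sele and 0.61 for Selp.

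Within KO, the members differed in the library in which they were highest. Vcam1, Icam1 and Sele were highest in KO1, at 10.6, 3.98 and 17.2 times their WT means, as was Ptprc at 6.16 times. Icam2, Selp and Cd34 were highest in KO3, at 9.12, 21.7 and 13.3 times, as was Pecam1 at 15.8 times. Selplg was nearly equal in KO1 and KO3, at 8.17 and 8.10 times. KO2 had the lowest KO level of each tested member except Icam1, from 2.47 times the WT mean for Vcam1 to 4.79 times for Sele, and Icam1 there was 1.90 times. The summed endothelial genes stood at 4.83, 3.30 and 9.22 times their WT mean in KO1, KO2 and KO3, the leukocyte genes at 6.48, 2.27 and 8.42 times, and the fibroblast genes at 13.2, 4.18 and 9.37 times. Genes of other tissues stood out most in KO3: adipocyte genes were at 5.999, 2.61 and 51.6 times, skeletal muscle genes at 6.85, 2.13 and 16.7 times and platelet genes at 2.59, 1.59 and 10.3 times in KO1, KO2 and KO3. The platelet value of KO3 was carried by Pf4, at 326 of the summed 362 CPM. The part of these lists in the order of the members was not tested.

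The genes nearest to each member were found among 12667 tested genes by the mean absolute difference of centred log2 CPM over the 6 libraries. They were S1pr4, Unc93b1 and Zfp467 for Vcam1 (0.109 to 0.122), Ppfia4, Slc13a3 and P3h3 for Icam1 (0.0579 to 0.0944), and Egfl7, Stap2 and Treml2 for Icam2 (0.0999 to 0.143). Lox, B3galnt1 and Chd3 lay nearest to Sele (0.172 to 0.194), and Sox17, Clec14a and Nxpe5 nearest to Selp (0.379 to 0.430). For Selplg these were Rac2, Klrd1 and Glmp (0.0597 to 0.0739), and for Cd34 Ms4a8a, Prss23 and mt-Nd5 (0.0504 to 0.179). Pecam1 itself ranked 40 for Cd34, 56 for Selp and 149 for Icam2, but 881 for Sele, 934 for Selplg, 1638 for Vcam1 and 8611 for Icam1. With 6 points in 2 groups, these ranks describe shape only.

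Some of the listed partners of these molecules rose as well. Of 11 genes for leukocyte integrins, CD44 and CD43, 10 were tested, 6 rose and 0 fell (median log2 fold change 2.23). In the same fit 11.2% of all tested genes rose and 0.226% fell, shares that also apply to the lists below. Itgax, an integrin chain of myeloid cells, was higher by 2.15 (SE 0.35) on the log2 scale, Spn, the mucin CD43, by 2.48 (SE 0.41), Itgb7, the partner chain for Madcam1 binding, by 2.69 (SE 0.45), and Itga9, an integrin chain that pairs with that of Itgb1, by 2.42 (SE 0.43). The receptors for Icam1 and Vcam1, picked for that role after their values were seen, had unlike values, and the difference between the pairs was not tested. Itgal and Itgb2, the chains of the Icam1 receptor LFA-1, rose by 2.26 (SE 0.40) and 2.61 (SE 0.46), both at an adjusted p of 0.0246 (edgeR). Itgam, which also pairs with Itgb2 to bind Icam1, had a log2 fold change of 2.21 (SE 0.60) and did not pass (adjusted p = 0.0527, edgeR). For Itga4 and Itgb1, the chains of the Vcam1 receptor VLA-4, the log2 fold change was -0.15 (SE 0.33) and -0.19 (SE 0.32) and neither passed (adjusted p = 0.775 and 0.701, edgeR). Itga4 was at 92.8, 60.9 and 64.7 CPM in KO1, KO2 and KO3 and at 52.8, 81.2 and 107.5 CPM in WT1, WT2 and WT3, with the groups overlapping. Itgb1 was at 502 to 703 CPM in WT, where Ptprc was at 50.1 to 86.5 CPM. In bulk tumours the cells that carry these chains cannot be told apart.

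Of 18 genes that carry or build selectin ligand sugars, 17 were tested, 6 rose and 0 fell (median 1.21). B3gnt3, which extends core O-glycans, was higher by 2.49 (SE 0.40), Podxl, a sialomucin of endothelium, by 2.32 (SE 0.39), Chst2, a sulfotransferase of selectin ligands, by 1.91 (SE 0.37), and Gcnt1, the core O-glycan branching enzyme, by 1.79 (SE 0.39). The count was 3 without composition scaling and 10 without KO2 or with limma-voom and quality weights. Over all tested genes these fits called 1711, 4449 and 5531 higher, against 2083 in the main fit. Of 16 junction and transmigration genes, all were tested, 6 rose and 0 fell (median 0.59). Besides Pecam1 and Cdh5 (3.01, SE 0.51) those with the smallest p were F11r, the junction molecule JAM-A (1.91, SE 0.29), and Aoc3, vascular adhesion protein (2.94, SE 0.53).

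Of 19 genes for cytokines that induce endothelial adhesion molecules and for their receptors, 18 were tested, 7 rose and 0 fell (median 1.62). The receptor genes Il1r1 (2.67, SE 0.34), Tnfrsf1b (2.79, SE 0.46), Il4ra (2.02, SE 0.37) and Ifngr1 (2.001, SE 0.41) had the smallest p, and the cytokine gene Ltb, picked after its value was seen, the highest called fold change (2.94, SE 0.65). The count was 3 without KO3, 11 without KO2, 13 without KO2 and WT1, and 15 with limma-voom and quality weights. Over all tested genes these fits called 943, 4449, 4711 and 5531 higher, against 2083 in the main fit. Of 10 genes of high endothelial and mucosal vessels, 5 were tested and 1 rose (median 1.45), Ackr1, the chemokine-binding receptor of venules, at 2.62, 0.826 and 12.1 CPM in KO1, KO2 and KO3 and 0.437, 0.228 and 0.178 CPM in WT1, WT2 and WT3 (log2 fold change 4.17, SE 1.04, adjusted p = 0.0422, edgeR). That count was 0 with limma-voom or without KO3, and 2 to 3 with no low-count filter, DESeq2, quality weights or without KO2. Over all tested genes, limma-voom called 988 and the fit without KO3 943 higher, and the others 2880 to 5531. Apln (1.45, SE 0.40), Fut7 (2.22, SE 0.67), the fucosyltransferase of selectin ligands, and Ch25h (0.43, SE 0.51) did not pass. The sulfotransferase gene Chst4, a marker of high endothelial venules, had 0 counts in all 6 libraries, and the venule chemokine gene Ccl21a had 0 counts in all but WT1. As for the members, each of these counts was 0 in the 4 fits in which edgeR called no gene.

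**Figure D4:**
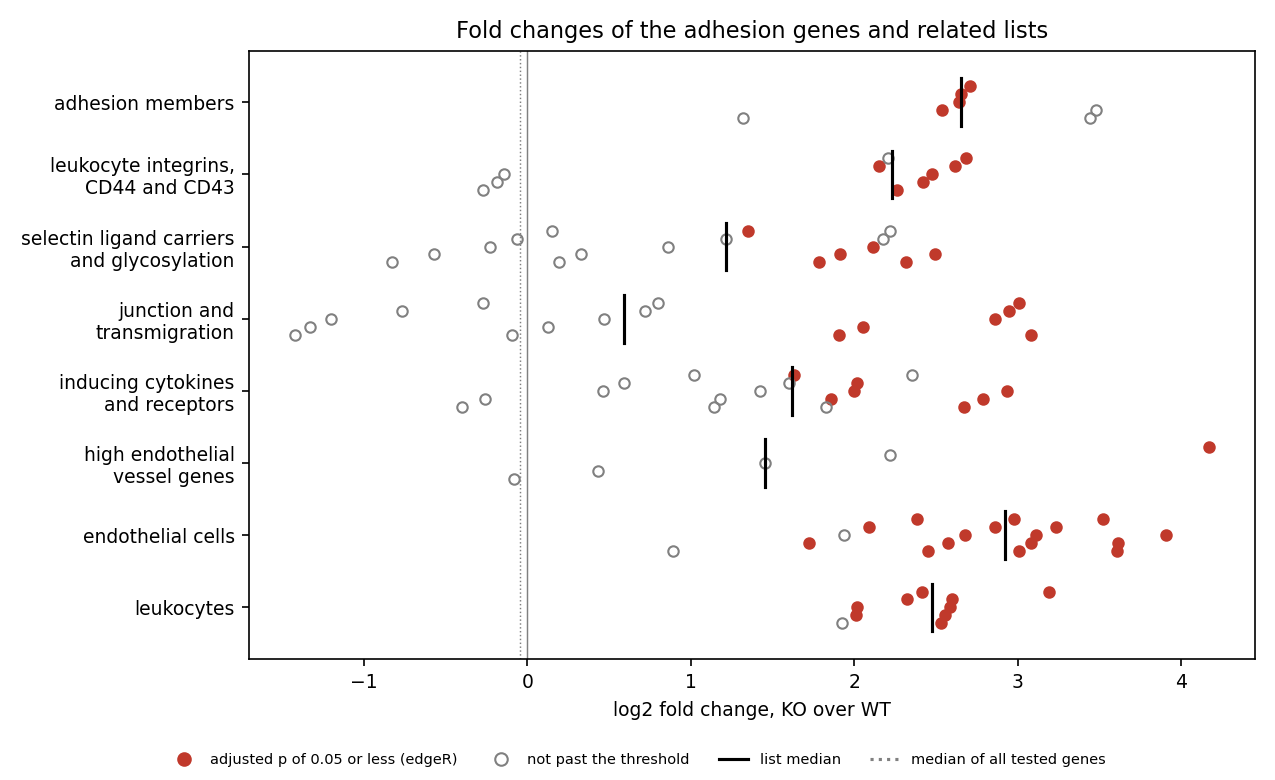
Log2 fold change, KO over WT (horizontal axis), of each tested gene of the adhesion set and of 7 related lists, with filled red circles for genes past an adjusted p of 0.05 (edgeR), open grey circles for the others, black bars for list medians and a dotted line for the median of all tested genes. The adhesion set's median of 2.66 lies between those of the leukocyte list (2.47) and the endothelial list (2.92).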

How the data were processed

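The values are whole-number counts of reads for each gene in each library, which the authors deposited as 1 table; its columns are those of a featureCounts output, per the file headers. Per the submitters' processing notes, which give no roles, the build was mm10 and a tool was DESeq2. Not given in the sources used here are how multi-mapped reads were handled, the strand setting, the aligner and the annotation release. The gene positions of the members were the same in GENCODE M21. Libraries were mapped by their descriptions, and 0 columns were left out. Replicate numbers follow accession order and only name a library.

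KO was compared with WT with edgeR 4.0.16 (glmQLFTest) in R 4.3.3 (two-sided, TMM, filterByExpr, group as the only term, Benjamini-Hochberg over all tested genes, threshold 0.05); the SE was taken as the size of the log2 fold change over the root of F. Ratios to Pecam1 and Ptprc added 0.5 to each count and used an exact two-sided permutation test over libraries. Alternatives used DESeq2 1.42.0, limma 3.58.1, other scalings and filters, and fewer libraries; 1, without KO2 and WT1, was chosen after seeing the data. The fit was tested on simulated counts. The members and lists were chosen with earlier results of these data known. Genes named were the 9 members, Pecam1, Ptprc and Siglece, the 4 non-member genes with the smallest p of each related list, and the 3 genes nearest to each member; 1 gene of the leukocyte integrin list is not reported here; other genes are said to be picked for their role or are markers. Reads carried no molecular identifiers.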

Additional observations from a re-analysis of the deposited data

How the results depend on the processing

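No paired analysis was possible because the labels link no KO library to a WT library. The 7 tested members kept a higher level in KO in each alternative that tested them; Sele and Selp had too few counts for the filter at 50 counts in 3 libraries. Members called higher numbered 7 with DESeq2, without KO2 and WT1, or with quality weights in limma-voom, and 0 to 7 with 1 library left out. Over all genes, 2083 were called higher and 42 lower; the counts were 3266 and 1244 with DESeq2, 5531 and 4749 with quality weights, and 4711 and 4098 without KO2 and WT1. Limma-voom called 988 higher, no low-count filter gave 476 lower and no composition scaling 24 lower. With 1 library left out they were 0 to 4449 higher and 0 to 3629 lower. No composition scaling moved the median log2 fold change of all genes by -0.13.

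Relative to Pecam1, 81.8% of all tested genes had KO libraries under the WT libraries without overlap. In the edgeR fit scaled to Pecam1 the median log2 fold change of all tested genes was -2.62. Of the 7 members, 5 had a lower mean log2 ratio to Pecam1 in KO, 2 with the endothelial list as denominator, and 3 to 6 with 1 library left out. The sign turned with the endothelial list for Vcam1 (0.077), Icam2 (0.036) and Selplg (0.11), without KO3 for Vcam1 (0.14) and Selplg (0.020), without WT1 for Sele (-0.079), and without KO2 and WT1 for Sele (-0.028) and Selplg (0.035). With 1 library left out the differences ran from -0.90 to 0.14 for Vcam1, from -0.68 to 0.020 for Selplg and from -0.079 to 1.47 for Sele. The cause was not tested. Depth limits Sele, Selp, Madcam1 and Glycam1, whose WT libraries held 0 to 26 counts each.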
